A study of Homo sapiens with 8 samples.

Results

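The genes SON, SRRM2, SRSF8 and CLK2 encode proteins of nuclear speckles, and were followed in a map of N6-methyladenosine (m6A), the methyl mark on internal adenosines of RNA. The members were every entry of the authors' deposited table whose gene name was one of these 4 symbols, which gave 9 of the 4626 features listed under 3114 gene names. SON contributed 5 features, SRSF8 contributed 2, and SRRM2 and CLK2 contributed 1 each. The cells were wild-type HL-60, a human line long established from a promyelocytic leukaemia, seeded at 100000 cells per mL. One arm received 100 nM decitabine on 3 occasions, at 0 hours, 24 hours and 48 hours, the other received DMSO, and total RNA was taken from both at 72 hours. Decitabine is a deoxycytidine analogue that is built into DNA and traps DNA methyltransferases, and DMSO is its solvent. Each treatment had 2 cultures, each with an input library and a library of fragments pulled down with an anti-m6A antibody, so the 8 libraries formed 4 groups of 2. The labels call the cultures duplicates and do not say more of how separate they were.

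Nuclear speckles are bodies between chromosome territories that hold pre-mRNA splicing factors. SON and SRRM2 are the large, serine- and arginine-rich scaffold proteins on which speckles form. SR proteins such as SRSF8 bind exonic sequences and recruit the spliceosome, and kinases of the CLK family phosphorylate the arginine- and serine-rich domains of SR proteins, which releases them from speckles. m6A is written on pre-mRNA largely in long internal exons and near stop codons, and the nuclear m6A reader YTHDC1 binds SR proteins.

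The comparison asks where on these 4 transcripts the m6A signal differed between decitabine and DMSO. The m6A signal was mostly listed as lower on the likely decitabine side: 8 of the 9 features were negative, and each of the 4 genes was led, by its smallest p-value, by a negative feature. Of all listed features 43.7% were negative, and 41.1% of genes had a negative leading feature. Both shares include stepped ratios, a kind defined below, which made up 44.3% of the positive and 13.1% of the negative features. None of the 9 member features was stepped. Without stepped ratios 54.7% of genes had a negative leading feature, which is the closer comparison for the members. SON carried the longest run of negative values, with 5 features of 1.87-fold to 10.4-fold packed into one part of the gene. SRSF8 was the exception to a single direction, with a 5.12-fold feature above zero and an 8.61-fold feature below it on the log scale. The single features of SRRM2 and CLK2 were negative and smaller, at 2.07-fold and 2.49-fold. The genes were proposed with these signs already known, so the counts describe the members and test nothing.

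Folds are the larger arm divided by the smaller, that is, the exponential of the absolute natural log ratio in the deposit. The deposited ratio is negative where the likely decitabine arm is smaller. The numerator is not stated, and decitabine over DMSO is the likely reading because the table is named for the drug. The authors' deposited table gives 1 ratio and 1 p-value per feature over all libraries, so no value per culture, no error and no depth stands behind any ratio below. The sources used here do not say whether the ratio was corrected for input RNA, so a change in m6A and a change in RNA amount cannot be told apart. All listed features had already passed a filter: the smallest ratio was 1.65-fold and the largest p-value 0.00455. A part of a member gene without a listed feature may therefore have been tested and missed the filter, or not tested. Of 16 markers looked up for promyelocytic, erythroid and lymphoid cells, 0 were listed, and a table of changed features cannot show whether a marker was expressed.

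**Figure D1:**
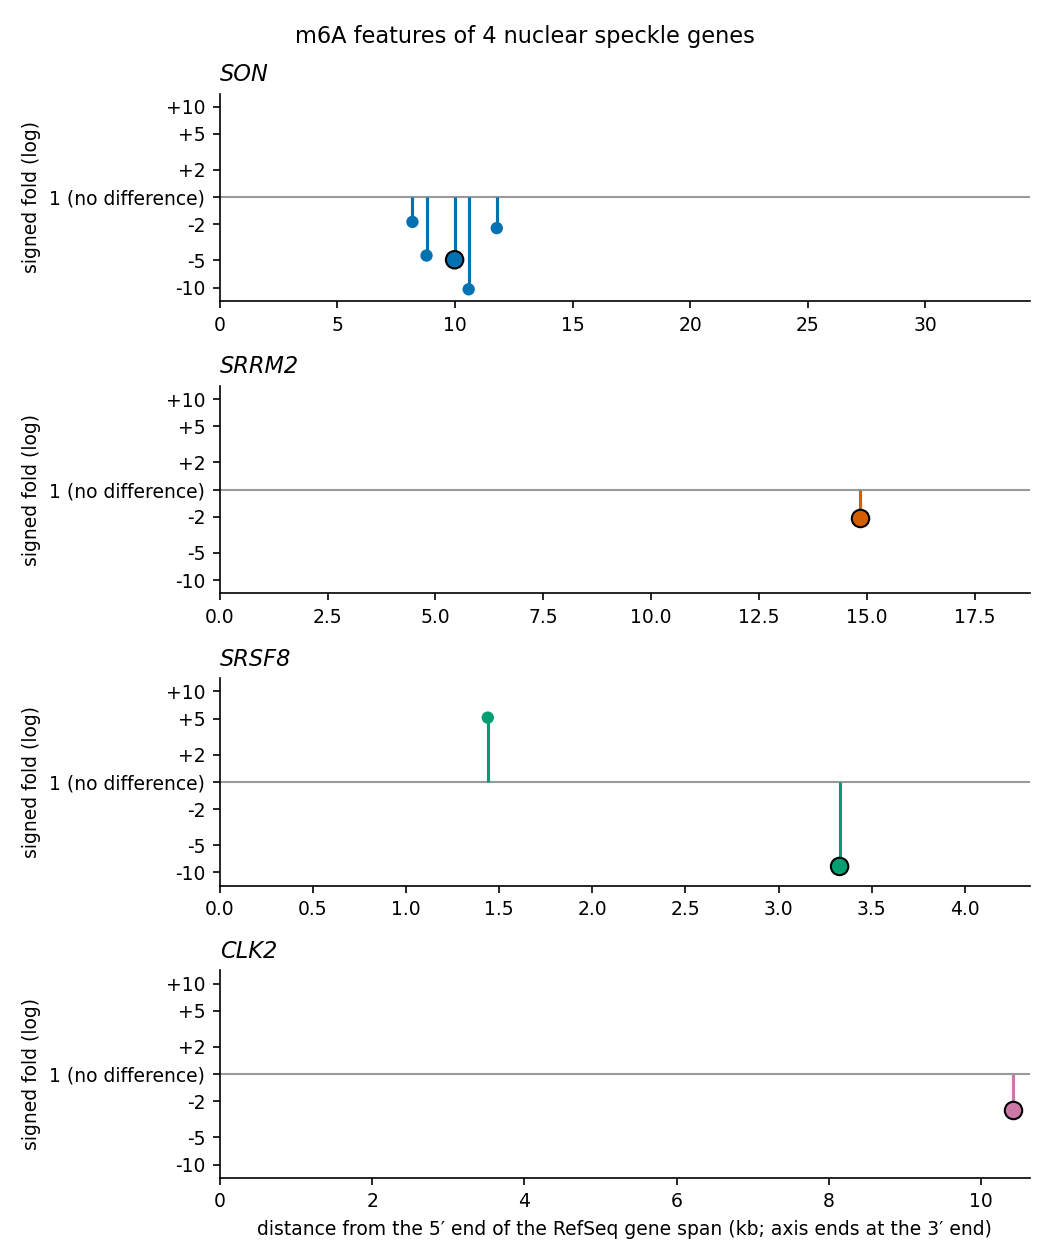
Each panel plots the features of 1 gene against the distance from the 5′ end of its RefSeq span in kb, with the signed fold on a log axis (negative is likely lower with decitabine); outlined points are the leading features, and no error bars exist for these single values. The 5 features of SON start 8168 to 11754 nt into a 34444-nt span and all point down, while SRSF8 has 1 feature on each side.

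The promoters of the 4 genes are shown because the DNA methyltransferases that decitabine traps methylate cytosines in CpG dinucleotides. The promoters are also the sequences of these genes that the RefSeq table (GRCh38.p14) held. Neither DNA methylation nor promoter activity was measured, and the RNA sequence under the 9 features was not used here. The 250 bases before each annotated start are written 5′ to 3′ on the strand of the gene, with each CpG in capitals. All 4 symbols matched, SRSF8 with 2 overlapping windows, of which the first is shown.
SON (chr21:33542788-33543037, plus strand): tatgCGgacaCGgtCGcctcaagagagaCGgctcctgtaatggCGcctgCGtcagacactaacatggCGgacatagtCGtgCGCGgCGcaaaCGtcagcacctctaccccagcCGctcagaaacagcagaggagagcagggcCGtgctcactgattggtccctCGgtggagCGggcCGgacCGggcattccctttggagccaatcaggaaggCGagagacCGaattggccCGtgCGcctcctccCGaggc
SRRM2 (chr16:2752388-2752637, plus strand): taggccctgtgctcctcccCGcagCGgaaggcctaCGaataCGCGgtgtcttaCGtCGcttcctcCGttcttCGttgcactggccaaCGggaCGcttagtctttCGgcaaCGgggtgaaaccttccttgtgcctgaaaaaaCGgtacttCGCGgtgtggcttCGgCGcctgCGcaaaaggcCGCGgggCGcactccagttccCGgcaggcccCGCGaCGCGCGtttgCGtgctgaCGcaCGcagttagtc
CLK2 (chr1:155273505-155273754, minus strand): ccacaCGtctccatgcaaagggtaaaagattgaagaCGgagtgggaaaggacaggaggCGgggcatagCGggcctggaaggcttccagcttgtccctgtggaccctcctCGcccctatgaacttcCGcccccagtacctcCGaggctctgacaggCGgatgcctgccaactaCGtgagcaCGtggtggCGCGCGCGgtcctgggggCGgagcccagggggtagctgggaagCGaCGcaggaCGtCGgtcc
SRSF8 (chr11:95066627-95066876, plus strand): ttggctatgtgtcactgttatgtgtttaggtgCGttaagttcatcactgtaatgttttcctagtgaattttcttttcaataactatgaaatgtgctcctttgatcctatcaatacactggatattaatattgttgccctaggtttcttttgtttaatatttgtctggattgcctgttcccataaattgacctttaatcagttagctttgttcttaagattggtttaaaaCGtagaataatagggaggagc
The stretch before SRRM2 held 31 CpGs, that before SON 23 and that before CLK2 19. The stretch before SRSF8 held 2, and so did its second window. The searched motif was CG, which reads the same on both strands, and 93.9% of the 35116 windows of that length held at least 1, with a median of 11. At least as many CpGs as in SRRM2, SON and CLK2 were found in 10.9%, 25.8% and 34.6% of windows, and at least as many as in SRSF8 in 85.3%. The GC content was 63.6% for SON, 63.2% for SRRM2, 65.2% for CLK2 and 33.6% for SRSF8. SRSF8 thus stood apart from the other members in CpG and GC content of this stretch.

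SON (ENSG00000159140.21, hg38 chromosome 21, plus strand) is a large speckle scaffold, and its RNA carried the most values of the members. From 5′ to 3′, the authors' deposited table placed a negative 1.87-fold feature at 33551206 to 33551255 (p = 0.000996) and one of 4.41-fold, also negative, at 33551804 to 33551853 (p = 0.00102). The third feature in the authors' deposited table, at 33552999 to 33553048, was negative at 4.91-fold and had the smallest p-value of the gene (p = 0.00014). The authors' deposited table gave the fourth, at 33553597 to 33553646, as the largest member ratio, a negative 10.4-fold (p = 0.00054), and the fifth, at 33554792 to 33554841, as a negative 2.19-fold (p = 0.0019). The ratios were thus smallest at both ends of the run and largest inside it. The largest ratio and the smallest p-value fell on neighbouring but different features. With no error on any of the 5 values, whether 4.41-fold and 4.91-fold differ from each other, or from 10.4-fold, was not tested.

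The SON features shared a narrow position. They lay in 3636 nt of the 34444-nt RefSeq span, 10.6% of it, from 23.8% to 34.2% of the way from the 5′ to the 3′ end. They covered 250 nt in all, and no pair was adjacent: the unlisted stretches between them were 548, 1145, 548 and 1145 nt long. Every member feature was 50 nt wide. The distances from start to start were 598, 1195, 598 and 1195 nt, each close to a multiple of that width. Whether this spacing reflects the windows used for scoring or the RNA was not tested. No feature of SON was listed in the last 22640 nt of the span, although listed features as a whole sat late in genes, with a median position of 81.9% of the span and 38.4% of the 4240 features inside their gene's span in its last 10%. The hairpin of MIR6501, a microRNA inside the SON span, ended 477 nt before the first feature, and was not listed. Exons and introns were not annotated here.

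Genes with as many features as SON were rare, and a single direction was the minority among them. Of the genes in the table, 1.64% (51 of 3114) had 5 or more features. Of these, 9.8% (5 genes) had negative features only, 4 had positive features only and 42 had both signs. SON was 1 of the 5, and PLEC, BAHCC1 and ARHGAP35 were others. These sign counts include stepped ratios, of which SON had 0. In SETD2, ADNP2 and SCAF1 the only positive feature was stepped, at 132-fold, 90-fold and 110-fold. Their features that were not stepped were thus all negative. The same sign counts without stepped ratios were not made. The stretch that held the features was shorter than that of SON in 14 of the 51 genes, whose median was 10036 nt, and a smaller share of the span in 13 of the 48 genes with all features inside 1 span, whose median was 18.2%.

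By the fixed rule, the genes most like SON were those with at least as many features and the largest share of negative ones, with ties ordered by p-value. The authors' deposited table gave PLEC, which encodes the cytoskeletal linker plectin, 7 negative features of 2.34-fold to 5.88-fold, with a median of 4.42-fold. BAHCC1, a chromatin reader, had 5 of 1.75-fold to 4.44-fold in the authors' deposited table. ARHGAP35, a GTPase-activating protein, had 5 of 2.02-fold to 5.73-fold, and RREB1, a zinc finger transcription factor, 7 negative features and 1 positive, again from the authors' deposited table. SON had a median of 4.41-fold, close to that of PLEC, and its 10.4-fold feature was above every feature of PLEC, BAHCC1 and ARHGAP35. Of the 4 genes described RREB1 alone exceeded it, where the authors' deposited table has a single negative 618-fold ratio. The likeness covers 1 comparison and the number and sign of features alone.

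**Figure D2:**
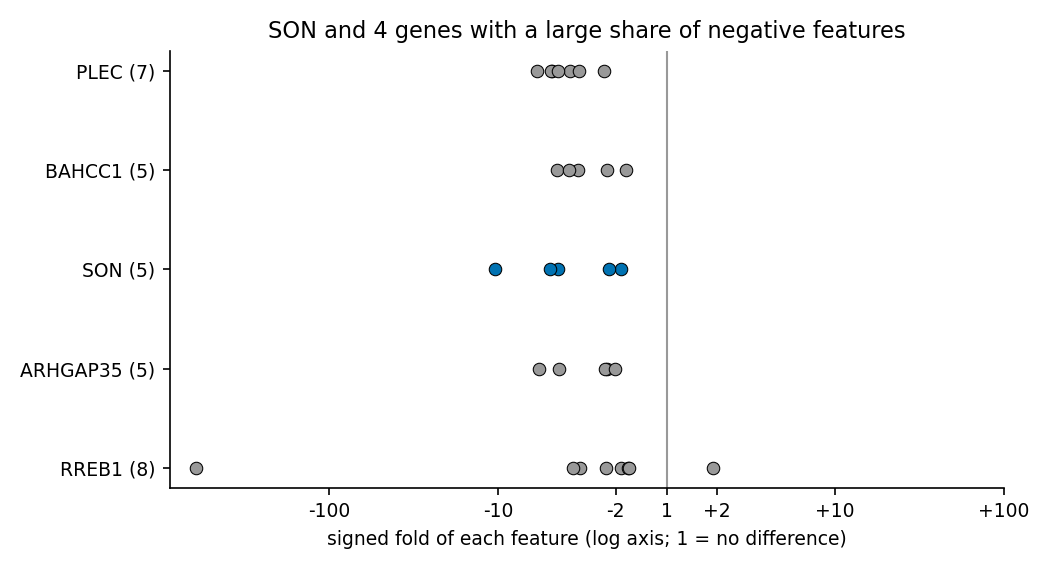
Each row plots all features of 1 gene by signed fold on a log axis (negative is likely lower with decitabine), with the number of features in brackets. All 5 features of SON lie left of the line, as do those of PLEC, BAHCC1 and ARHGAP35, and RREB1 has 1 feature to the right.

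SRRM2 (ENSG00000167978.17, chromosome 16, plus strand) is the second large speckle scaffold and sits in the active spliceosome. The authors' deposited table held 1 feature for it, at 2767459 to 2767508, negative at 2.07-fold (p = 0.00041). It was a small ratio for the table: 13.9% of all negative features were smaller. The feature lay 14821 nt from the 5′ end and 3904 nt from the 3′ end of the span, at 79.1% of it, later in the gene than any feature of SON. A single feature was the usual case, seen for 69.6% of genes, and 43.2% of those were negative, with stepped ratios counted. The span of the antisense RNA SRRM2-AS1 ends 37 nt before the SRRM2 span, inside the promoter stretch shown above, and the gene ELOB follows 1 nt after the SRRM2 span; neither was listed.

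SRSF8 (ENSG00000263465.4, chromosome 11, plus strand) is an SR protein of the family's RNA-binding and arginine-serine-rich design, derived from a reverse-transcribed copy of SRSF2. The authors' deposited table gave it a positive 5.12-fold feature at 95068291 to 95068340 (p = 0.0029). Its other feature in the authors' deposited table, at 95070180 to 95070229, was negative at 8.61-fold and had the smallest p-value of all 9 member features (p = 1.7e-05). The features were 1839 nt apart in a 4349-nt span, the positive one 1414 nt from the 5′ end and the negative one 996 nt from the 3′ end. SRSF8 was thus listed as likely higher with decitabine early in its span and lower near its end. Such a split was common: of 607 genes with 2 features, 47.1% had 1 of each sign, 121 had a pair of negative and 200 a pair of positive features. These counts include stepped ratios, whereas neither feature of SRSF8 was stepped. A difference between the 2 sites cannot be tested without values per library. SRSF2 was not listed, and the sources used here do not say how reads shared by related genes were placed, so the SRSF8 values are uncertain in that respect.

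CLK2 (ENSG00000176444.19, chromosome 1, minus strand) is the kinase member. In the authors' deposited table its feature at 155263066 to 155263115 was negative at 2.49-fold (p = 0.00049). Its distance from the 3′ end of the 10637-nt span was 198 nt (97.9% of the way along), the position nearest to a gene end among the 9. Its relatives CLK1, CLK3 and CLK4 and the transcribed pseudogene CLK2P1 were not listed. The neighbour SCAMP3 lies 507 nt beyond the CLK2 span and was not listed either.

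Set against the rest of the table, the member ratios were of ordinary size. The median negative member feature was 3.45-fold, against 3.95-fold for all negative features. By p-value the 9 features ranked between 595th and 3858th of 4616. Many of the large ratios in the table were exact multiples of 0.5, called stepped ratios here (30.7% of features, 44.3% of the positive and 13.1% of the negative ones). Most folds were ratios of whole numbers, and a stepped one, in lowest terms, has a very small smaller term. Whether large stepped ratios rest on few reads in the smaller arm was not tested, as no depth is given. None of the 9 member features was stepped, and 69.3% of features in the table were not. The median negative ratio among those was 3.52-fold.

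**Figure D3:**
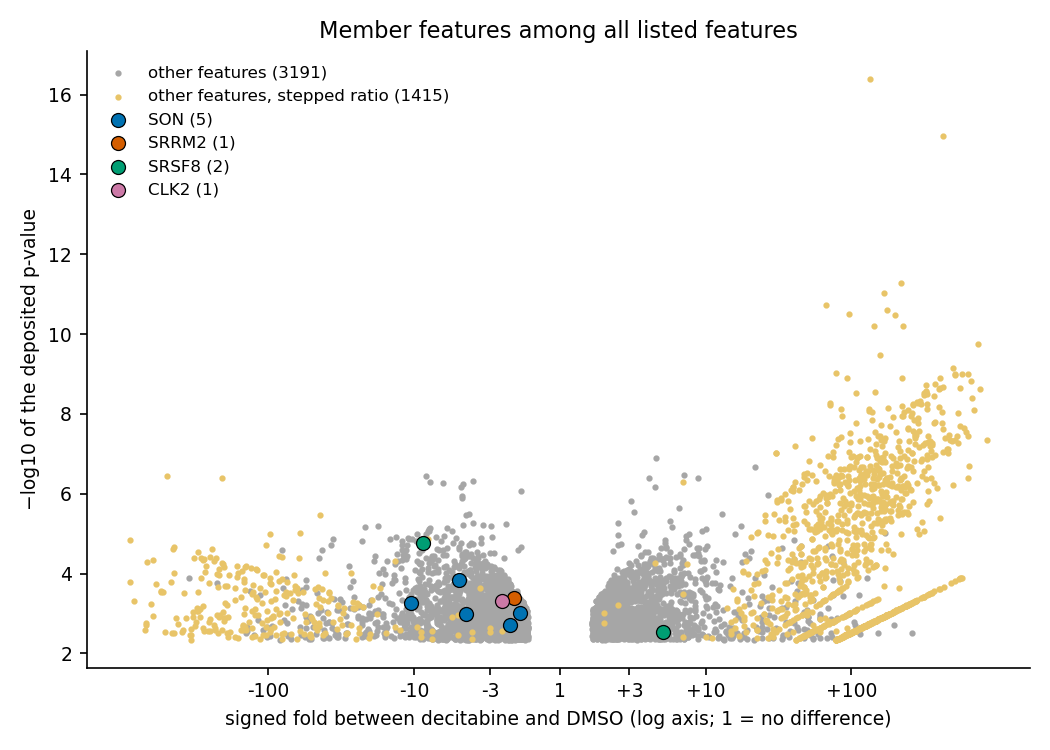
Each point is 1 feature, by its signed fold (log axis, negative is likely lower with decitabine) and the −log10 of its deposited p-value; yellow points are stepped ratios, and 1 feature with an absolute log ratio above 10 is not drawn. The 9 member features lie within the cloud of grey points, between 1.87-fold and 10.4-fold, with 8 on the left.

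Other splicing genes were looked up in 5 lists of 159 symbols, and their leading features went both ways. Over all lists 45 genes were in the table, 26 negative and 19 positive (57.8% negative, against 41.1% of all genes), and without the 4 members the counts were 22 and 19. The lists were chosen with earlier results of these data known. SR proteins had the most one-sided count, with 4 of 14 symbols listed, 4 negative and 0 positive, or 3 and 0 without SRSF8. By feature the SR proteins were 4 negative and 1 positive. Besides SRSF8 the listed SR proteins were SRSF11 at 4.64-fold (p = 0.0014), SRSF12 at 143-fold (p = 0.0030) and SRSF4 at 1.91-fold (p = 0.0036) in the authors' deposited table, where each of these 3 had a single feature. The SRSF12 ratio, 142.75 before rounding, was not stepped by the rule but also has a very small smaller term in lowest terms. Speckle scaffolds and SR-related proteins had 8 negative and 7 positive of 15 listed genes among 36 symbols (53.3% negative). Without SON and SRRM2 the counts were 6 and 7.

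Beside SON and SRRM2, the scaffold and SR-related list was led by genes of both signs. The authors' deposited table gave SREK1, a regulatory SR-related protein, a stepped ratio of 155-fold, positive (p = 3.7e-07). ACIN1, a protein of the apoptosis- and splicing-associated complex on exon junctions, was negative at 4.67-fold (p = 1.1e-06) in the authors' deposited table. CHERP, a spliceosome-associated protein, was led by 4.92-fold, negative (p = 2.4e-05), and the authors' deposited table also gave it positive features of 2.36-fold and 147-fold. These 3 features of CHERP lay between 944 and 1243 nt from the 3′ end, so that opposite signs were listed closer together there than in SRSF8. SCAF1, which binds the tail of RNA polymerase II, was named after its values were seen, as the only other gene of the lists with 5 or more features: 5 negative and 1 positive in the authors' deposited table. Its positive feature, at 110-fold, was stepped, as was 1 of the negative ones, at 296-fold. The SCAF1 features that were not stepped were all negative.

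The kinases, core factors and hnRNP proteins differed in their balance. Of 11 kinase symbols 4 were listed, 2 negative and 2 positive (50% negative), or 1 and 2 without CLK2. CLK2 and SRPK1, a mostly cytoplasmic SR protein kinase, were the negative ones, SRPK1 at 2.63-fold (p = 0.00013) in the authors' deposited table. DYRK1A was positive at 51.5-fold (p = 1.6e-06) and at 40-fold, both stepped, and DYRK2 was positive at 119-fold (p = 0.0022, stepped) beside a negative 4.09-fold one, as the authors' deposited table has them. Core spliceosome factors were 5 negative and 7 positive of 12 listed among 70 symbols, 41.7% negative against 41.1% of all genes. Without stepped ratios they were 45.5% negative, against 54.7% of all genes. They were led by the helicase DDX23 (positive 92.5-fold, stepped, p = 9.2e-06), the 3′ splice site factor PUF60 (negative 2.40-fold, p = 0.00011) and the Sm protein SNRPD3 (positive 3.12-fold, p = 0.00030) in the authors' deposited table. The hnRNP proteins, RNA-binding proteins that often oppose SR proteins at exons, were 7 negative and 3 positive of 10 listed among 28 symbols. That was 70% negative, against 41.1% of all genes. Without stepped ratios it was 77.8% against 54.7%, and by the largest ratio of a gene 60% against 40.7%. Their leaders were PTBP1, a repressor of exons, with negative features of 4.08-fold (p = 9.9e-05) and 3.76-fold, HNRNPUL2 at a negative 3.46-fold (p = 0.00025), and HNRNPLL at a negative 5.98-fold (p = 0.00050) beside 94-fold, positive and stepped, all from the authors' deposited table.

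**Figure D4:**
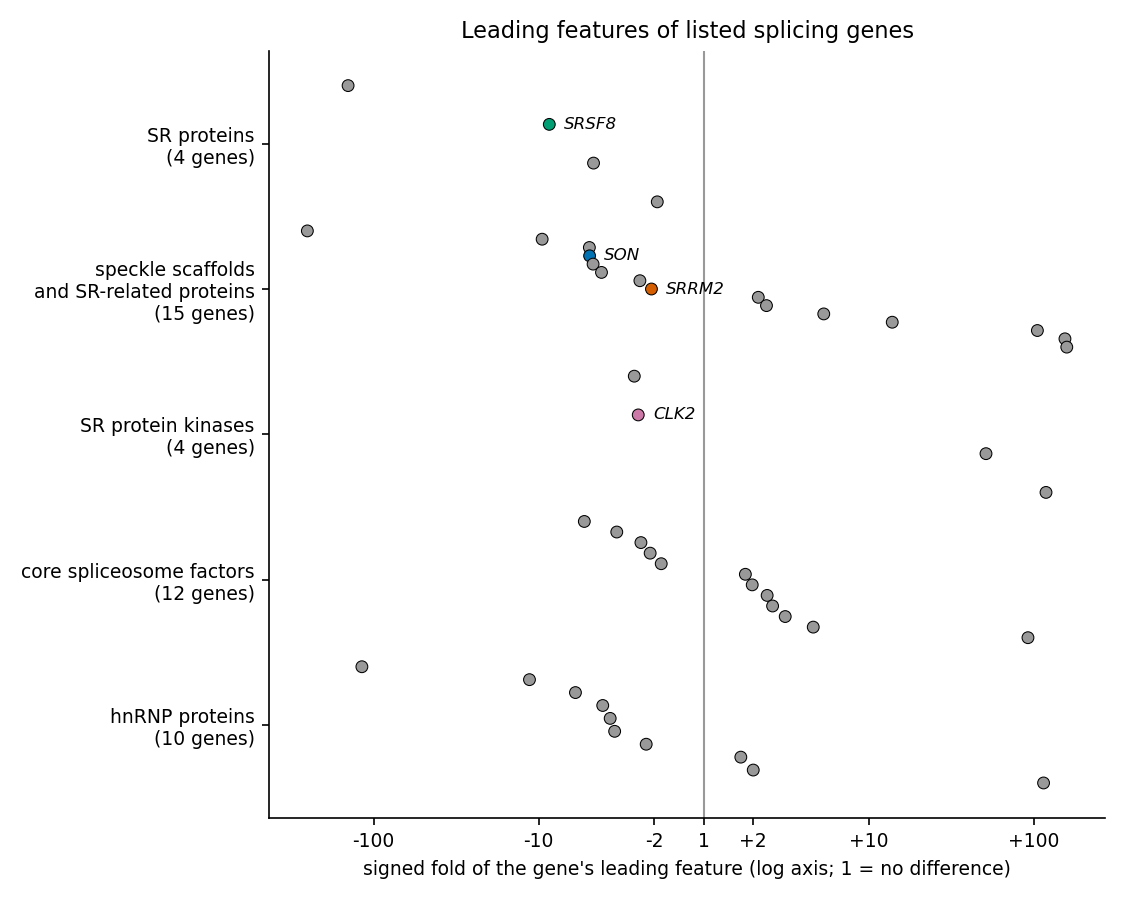
Each point is the leading feature of 1 listed gene, by signed fold on a log axis (negative is likely lower with decitabine), in 5 lists; coloured points are the 4 members. All 4 SR proteins lie on the left, and the other lists hold points on both sides.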

How the data were processed

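The 8 MeRIP-seq libraries (single 50-base reads; 2 µg of RNA and 5 µg of antibody per pull-down, per the labels' protocols) were grouped by title. The submitters' processing notes name STAR 2.7.3a and hg38, and the sources used here do not name the scoring tool. The authors' deposited table holds a log ratio, read as a natural log, and a p-value per feature, not marked as adjusted. Read so, 8 of 9 member folds, and 4426 of 4616 in all, were ratios of whole numbers (smaller term up to 2000, relative tolerance 1e-09), against 0 and 138 with base 2. Coordinates were taken as 1-based, both ends counted. The 10 chromosome Y features, copies of X, were dropped from all counts after the table total, leaving 4616. Stepped ratios used a tolerance of 1e-08 and log ratios under 10. Spans came from RefSeq GRCh38.p14. The named-gene rule took all members, 3 genes per list by p-value and 5 genes like SON, of which 1 is not reported here. Members and lists were chosen with earlier results of these data known. Alternatives dropped stepped ratios, kept p under 0.001 or at least 3-fold, changed the feature that represents a gene, the log base, or matched by position. No test was run, and functions were tested on simulated data. Python 3.11.15, pandas 2.3.3, numpy 2.4.6 and matplotlib 3.10.9 were used.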

Additional observations from a re-analysis of the deposited data

How the results depend on the processing

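No paired analysis was possible because the table holds no value per library, so leaving out a replicate and a replicate block were not run. Of the 9 member features, 8 negative and 1 positive remained without stepped ratios, 6 and 0 had a p-value under 0.001, and 4 and 1 were at least 3-fold. All 4 members stayed negative by the largest or the median log ratio of a gene, and matching by position found 9 features. Read as base 2, the median member fold was 2.80 in place of 4.41. Over the 5 splicing lists, 26 genes were negative and 19 positive. These counts and those that follow include the 4 members, whose signs were known beforehand. The counts were 26 and 12 without stepped ratios (68.4% negative, against 54.7% of all genes), 16 and 9 at a p-value under 0.001 (64.0%, against 37.6%), 17 and 11 at 3-fold or more (60.7%, against 37.6%), and 23 and 22 by the largest ratio (51.1%, against 40.7%). The SR protein list fell from 4 negative genes to 1 at a p-value under 0.001, and that 1 was the member SRSF8. By the largest ratio, the scaffold and SR-related list turned from 8 negative and 7 positive to 6 and 9 (40.0% negative, near the 40.7% of all genes). In the kinase list the counts without stepped ratios were 3 negative and 0 positive, and at 3-fold or more 0 and 2. The count of negative genes in a single list moved by over 1.5 times in 5 of 20 combinations of list and setting. That rule follows counts and not shares. At a p-value under 0.001 the hnRNP list fell from 7 negative genes to 4, at 70% and 80% negative. The core spliceosome list fell from 5 to 2, at 41.7% and 40%. The depth behind every ratio is unknown.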
